A study of Homo sapiens with 6 samples.

Results

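The AP-1 transcription factor genes JUN, JUNB, JUND, FOS, FOSB, FOSL1, FOSL2 and ATF3 were followed in ME-1 cells treated with AI-10-49. The 8 genes were chosen by symbol, each had a row of its own, and the table holds 6339 rows in all. ME-1 is an established human acute myeloid leukaemia line with inv(16), an inversion that fuses CBFB to MYH11, so the cells of both groups make the fusion protein CBFβ-SMMHC. AI-10-49 is a small molecule that blocks the binding of CBFβ-SMMHC to RUNX1. The treated group received 1 µM AI-10-49 and the control group the solvent DMSO, both for 6 h. Each group has 3 libraries of total RNA from what the labels call independent experiments on this 1 line. Of 14 markers of myeloid leukaemia cells 7 had a row, led with DMSO by SPI1 (154 ± 8.70 FPKM, SD, n = 3) and CEBPA (128 ± 10.99 FPKM). The lowest of them with DMSO were PRTN3 (1.06 ± 0.27 FPKM) and ELANE (2.05 ± 0.23 FPKM). Of 15 markers of other blood cells 4 had a row. With DMSO, CD3D, a T cell gene, stood at 32.2 ± 0.95 FPKM and CD79B, a B cell gene, at 24.5 ± 2.04 FPKM. CD3E and CD79A, of the same cell types, were low with DMSO, at 1.36 ± 0.12 and 2.42 ± 0.77 FPKM. The summed level of these 4 was 58.7 to 63.9 FPKM with DMSO and 25.6 to 27.5 FPKM with AI-10-49, that of the 7 myeloid genes was 399 to 444 and 181 to 269 FPKM, and none of the 11 was at 0. The part of such markers in the results was not tested.

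AP-1 is not one protein but a family of pairs. Jun, Fos and ATF proteins each carry a basic leucine zipper, a stretch that holds 2 such proteins together and grips DNA. Jun proteins pair with each other or with a Fos protein, while Fos proteins need a Jun partner to bind well. Most of these genes are immediate early genes, which are switched on within minutes by growth factors or stress through the JNK, ERK and p38 kinases. Which pair is made matters: JUN and FOS pairs are strong activators, JUNB and JUND are often weaker, FOSL1 and FOSL2 lack the activating end of FOS, and ATF3 can repress. In myeloid cells AP-1 takes part in the step towards monocytes and macrophages.

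Values are FPKM, that is fragments scaled for the length of the transcript and the size of the library, so that levels of different genes can be set side by side. The deposited rows are a selection in which nearly every row differs between the groups. With limma on log2(FPKM + 1), 95.3% of the 6230 rows tested had an adjusted p under 0.05, 46.2% higher and 49.1% lower with AI-10-49. A call by itself therefore says little about a gene here, and the size and direction of its change are given beside it. Log2 fold changes are of FPKM + 1 and so understate the change of low genes. AI-10-49 replicate 2 stood apart from the other libraries. In all 294 rows whose mean over AI-10-49 replicates 1 and 3 was above 100 FPKM, it read below both of these. Picking rows by replicates 1 and 3 favours such a result in part. Over all rows, replicate 2 had a maximum of 159 FPKM where replicates 1 and 3 had 1843 and 1877. Values of the members and of their ratios without replicate 2 are given below.

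The promoters of the members are shown first, because the genes of this family are known to act on each other's promoters through short sites. RefSeq promoter windows (GRCh38.p14, 250 bases before to 50 after a gene's start) were found for 7 members, all but FOSL1, and ATF3 had 2 windows. Both strands were searched for TGACTCA, the classical AP-1 site, TGACGTCA, the cyclic AMP response element that Jun-ATF pairs also bind, its variant TGACATCA, the shorter TGACGT, which lies inside TGACGTCA, and the MEF2 consensus, which MEF2 proteins bind. Capitals mark the matches in the stretches below, which read 5′ to 3′ on the gene's strand and end before the start.
JUN: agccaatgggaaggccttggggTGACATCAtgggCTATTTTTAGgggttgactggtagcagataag
ATF3: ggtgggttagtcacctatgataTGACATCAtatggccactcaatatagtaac
JUND, far: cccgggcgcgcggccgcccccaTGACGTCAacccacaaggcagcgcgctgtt
JUND, near: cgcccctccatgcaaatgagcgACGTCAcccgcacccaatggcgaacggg
FOS: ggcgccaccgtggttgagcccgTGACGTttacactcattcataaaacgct
FOSB: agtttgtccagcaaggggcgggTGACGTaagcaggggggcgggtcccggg
FOSL2: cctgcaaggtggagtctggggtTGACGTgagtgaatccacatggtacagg

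The stretches lie at chr1:58784071-58784136 (JUN, minus strand), chr1:212565262-212565313 (ATF3, plus), chr19:18281793-18281844 and chr19:18281682-18281731 (JUND, minus), chr14:75278742-75278791 (FOS, plus), chr19:45467914-45467963 (FOSB, plus) and chr2:28392770-28392819 (FOSL2, plus). TGACATCA was found in JUN and in 1 of the 2 ATF3 windows, and in 2.61% of all 35116 windows. In JUN it begins 67 bases before the start. In ATF3 it begins 123 bases before the start that lies at the 5′ edge of the RefSeq gene, and the window of the other start held no TGACATCA. A value per gene does not tell which ATF3 start was used. TGACGT was found in FOS, FOSB, FOSL2 and JUND, and in 7.98% of all windows. Its first base lies 64, 60 and 66 bases before the start in FOS, FOSB and FOSL2. JUND holds TGACGTCA (1.85% of all windows) and, nearer the start, TGACGT on the other strand. TGACTCA was found in FOSL2 alone, just after its start, and in 4.95% of all windows. The MEF2 consensus was found in JUN alone, 55 bases before the start, and in 2.99% of all windows. The JUNB window held no match. The motifs were chosen by hand, so the shares of all windows show how common each motif is and do not test the matches. These matches are descriptions of sequence, and binding was not measured here. Any link between a match and the size of a gene's change was not tested.

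All 8 members passed the filter on low values and all 8 passed the test, against 95.3% of all rows. With AI-10-49, 7 members rose (46.2% of all rows did) and FOSL1 fell (49.1% did). JUN, JUND, FOS, FOSL2 and ATF3, 5 of the 8, rose by at least 1 on the log2 scale, a change that 5.79% of all rows reached upwards. In this fit no member fell by that much, against 7.62% of all rows. FOSL1 came near it, at -0.94 on the scale of log2(FPKM + 1), while its mean FPKM was 2.09-fold lower. Under the other settings tried its log2 fold change ranged from -1.06 to -0.88, so whether it reached the limit depended on the setting. The groups did not overlap in any of the 8 members (96.2% of all rows), 7 lying higher (45.1%) and 1 lower (51.2%). The members' median log2 fold change was 1.42, against -0.28 over all rows tested. The set was chosen with earlier results of these data known, so these shares and medians describe it and do not test it.

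**Figure D1:**
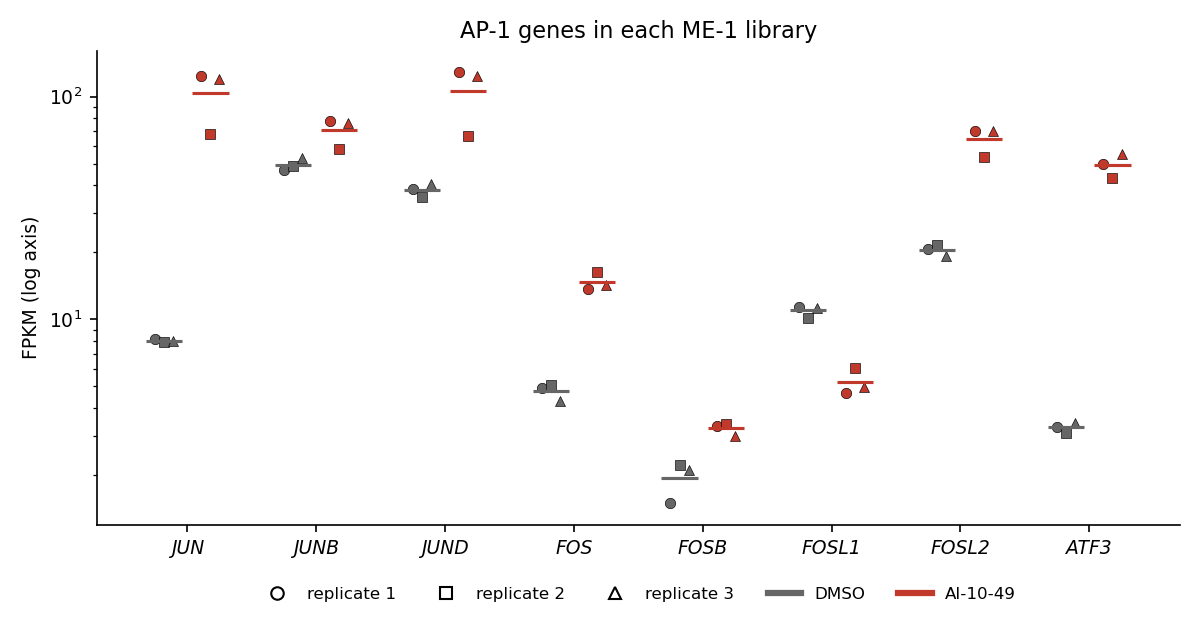
FPKM (vertical log axis) of each AP-1 gene in the 3 DMSO (grey) and 3 AI-10-49 (red) libraries, with symbols for the replicate number and horizontal lines for group means. JUN rose from a mean of 8.01 to 104 FPKM and ATF3 from 3.27 to 49.3 FPKM, while FOSL1 fell from 11.0 to 5.25 FPKM.

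Among the Jun genes, JUN changed most. JUN encodes c-Jun, which can pair with Jun or Fos proteins. The gene stood at 8.1320, 7.8877 and 7.9998 FPKM in the DMSO libraries and at 123, 68.0 and 120 FPKM in the AI-10-49 libraries. Every treated library lay far above the DMSO libraries, and replicate 2 was the lowest of the treated ones. The mean rose 13.0-fold, from 8.01 ± 0.12 to 104 ± 31.1 FPKM (SD, n = 3), and the log2 fold change was 3.49 ± 0.17 (SE, limma adjusted p = 1.80e-09), the third highest of all rows tested. Without AI-10-49 replicate 2 it was 3.77. In bulk RNA a rise in every cell and a larger share of cells that make the transcript cannot be told apart.

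JUND, a member that is usually expressed at a steady level and is known to slow growth in several cell types, read 38.6, 35.6 and 40.4 FPKM with DMSO. With AI-10-49 it read 129, 66.8 and 124 FPKM, again with replicate 2 lowest and all treated libraries above all DMSO libraries. Its mean rose 2.79-fold, from 38.2 ± 2.44 to 106 ± 34.5 FPKM (± SD over 3 libraries), or by 1.40 ± 0.21 (SE, adjusted p = 3.42e-05) on the log2 scale. Without replicate 2 of the treated group the log2 fold change of JUND was 1.70.

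JUNB, which can oppose JUN and restrains the growth of myeloid cells, was the most abundant member with DMSO at 46.9, 48.7 and 53.0 FPKM. It reached 77.3, 57.9 and 76.1 FPKM with AI-10-49, so that the lowest treated library stood little above the highest DMSO library. Its mean rose 1.42-fold, from 49.5 ± 3.13 to 70.5 ± 10.9 FPKM (± SD over 3 libraries), or by 0.49 ± 0.13 (SE, adjusted p = 0.00329) on the log2 scale. This change was 0.62 without AI-10-49 replicate 2 and 0.82 after quantile normalization.

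ATF3, a stress-induced factor that pairs with Jun proteins and is also a target of the amino acid response, read 3.28, 3.10 and 3.44 FPKM with DMSO. With AI-10-49 it read 49.6, 43.0 and 55.2 FPKM, and the treated libraries lay close together. The mean rose 15.1-fold, from 3.27 ± 0.17 to 49.3 ± 6.14 FPKM (SD, n = 3). Its log2 fold change of 3.55 ± 0.08 (SE, adjusted p = 9.18e-12) was the second highest of all rows tested, next to JUN, and was 3.64 without AI-10-49 replicate 2. The sequence around the TGACATCA match of JUN, and of 1 of the 2 ATF3 windows, is shown above. Any link between these matches and the rises was not tested.

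The Fos genes went in both directions. FOSL2, which encodes Fra-2, was the most abundant of them, at 20.6, 21.6 and 19.3 FPKM with DMSO and 70.0, 53.6 and 70.3 FPKM with AI-10-49. Its mean rose 3.15-fold, from 20.5 ± 1.16 to 64.6 ± 9.52 FPKM (± SD over 3 libraries), or by 1.60 ± 0.11 (SE, adjusted p = 2.62e-08) on the log2 scale. All treated libraries were well above the DMSO libraries, and without AI-10-49 replicate 2, the lowest of the treated ones, the log2 fold change was 1.73.

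FOS, which encodes c-Fos, read 4.94, 5.09 and 4.28 FPKM with DMSO and 13.7, 16.4 and 14.2 FPKM with AI-10-49. Here replicate 2 was the highest of the treated libraries. The mean rose 3.09-fold, from 4.77 ± 0.43 to 14.7 ± 1.43 FPKM (± SD over 3 libraries), or by 1.45 ± 0.08 (SE, adjusted p = 7.31e-09) on the log2 scale. Without replicate 2 of the treated group it was 1.37 for FOS. FOS stood below FOSL2 in every library.

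FOSB, whose protein resembles c-Fos, was the least abundant member in both groups. It read 1.4982, 2.2093 and 2.1001 FPKM with DMSO and 3.33, 3.39 and 2.99 FPKM with AI-10-49, so the groups lay apart but near each other. The mean rose 1.67-fold, from 1.94 ± 0.38 to 3.24 ± 0.21 FPKM (± SD over 3 libraries), or by 0.54 ± 0.11 (SE, adjusted p = 0.000422) on the log2 scale. At such levels the pseudocount matters, and the log2 fold change of FOSB was 0.73 with a pseudocount of 0.1, and 0.51 without AI-10-49 replicate 2.

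FOSL1, which encodes Fra-1, a Fos protein often raised in invasive tumour cells, was the member that fell. It read 11.4, 10.2 and 11.3 FPKM with DMSO and 4.68, 6.08 and 4.99 FPKM with AI-10-49, with every treated library below every DMSO library. Its mean was 2.09-fold lower, at 5.25 ± 0.73 against 11.0 ± 0.69 FPKM (± SD over 3 libraries), or -0.94 ± 0.09 on the log2 scale (SE, adjusted p = 5.50e-07). Replicate 2 was the highest treated library for FOSL1, and without it the log2 fold change was -1.04.

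**Figure D2:**
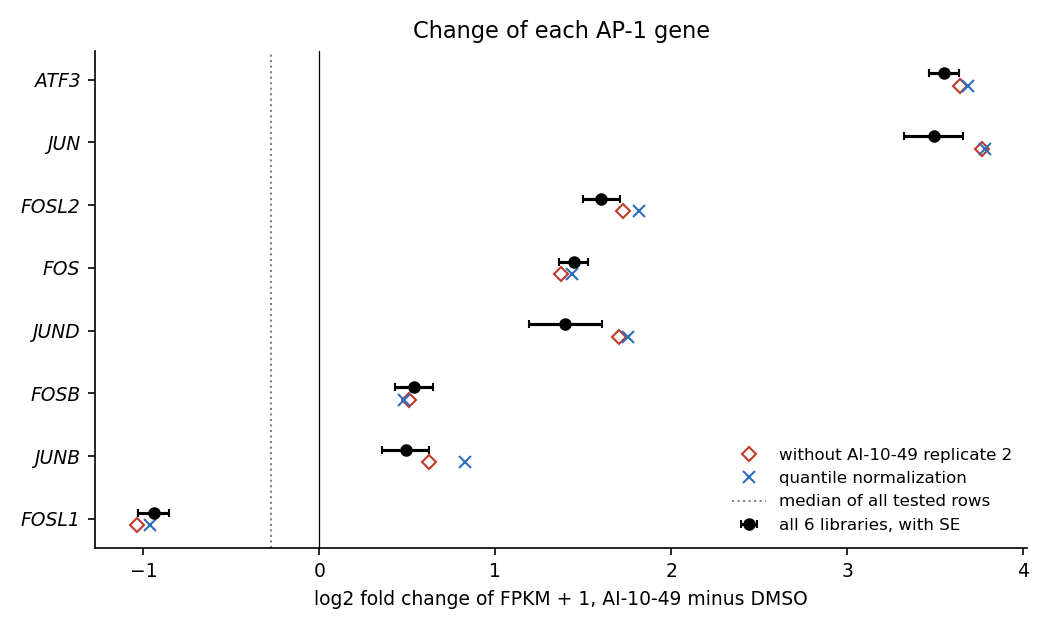
Log2 fold change of FPKM + 1, AI-10-49 minus DMSO (horizontal axis), for each AP-1 gene: all 6 libraries with SE (black), without AI-10-49 replicate 2 (open diamonds) and after quantile normalization (crosses), with the median of all rows (-0.28) dotted. ATF3 (3.55) and JUN (3.49) stand far to the right, and FOSL1 (-0.94) is the member left of zero.

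The place of replicate 2 differed among the members with their level. It was the lowest treated library in the 5 abundant members and the highest in FOS, FOSB and FOSL1. For JUN it read 0.559 times the mean of replicates 1 and 3, and the 76 other rows within 10% of that mean had a median of 0.550. For JUND the ratio was 0.528, against a median of 0.546 over 72 rows of like level. JUNB (0.755), FOSL2 (0.765) and ATF3 (0.820) lay above the medians of their like rows, 0.694, 0.714 and 0.795. They also lay above the upper quartiles of those rows, 0.717, 0.744 and 0.816. The low readings of JUN and JUND in this library were therefore close to those of other rows at their level. FOS (1.17, against 1.04) and FOSL1 (1.26, against 1.13) likewise read higher in it than most rows of like level. FOSB (1.07) lay near its like rows (1.12).

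**Figure D3:**
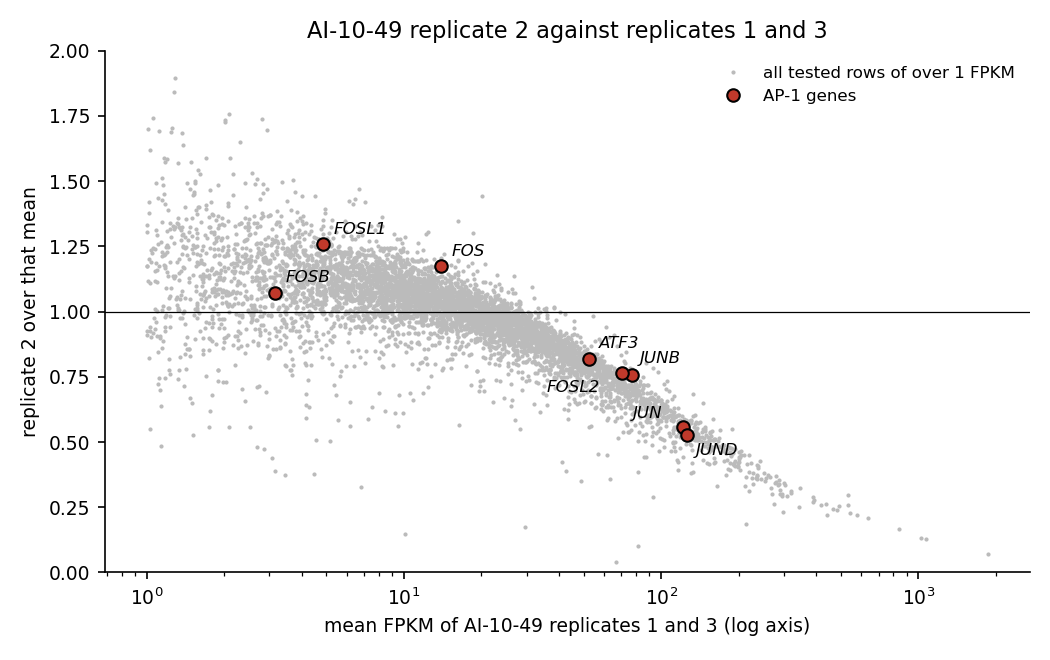
AI-10-49 replicate 2 divided by the mean of replicates 1 and 3 (vertical axis) against that mean (horizontal log axis), for tested rows with a ratio of up to 2 (grey) and the AP-1 genes (red). The ratio falls with the level, and JUN (0.559) and JUND (0.528) lie within the band of other rows.

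The order of the members by level changed with treatment. With DMSO it was JUNB, JUND, FOSL2, FOSL1, JUN, FOS, ATF3 and FOSB, and the ranges of neighbours did not overlap at any step. With AI-10-49 it was JUND, JUN, JUNB, FOSL2, ATF3, FOS, FOSL1 and FOSB. There the ranges of JUND and JUN, JUN and JUNB, JUNB and FOSL2, and FOSL2 and ATF3 overlapped, while those further down did not. Within single libraries the order was clearer: JUN read above JUNB, JUNB above FOSL2 and FOSL2 above ATF3 in all 3 treated libraries, and JUND read above JUN in 2 of 3.

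Summed over the 8 genes, AP-1 mRNA stood at 135, 134 and 142 FPKM with DMSO and at 470, 315 and 468 FPKM with AI-10-49. The mean sum rose 3.05-fold, from 137 ± 4.06 to 418 ± 89.0 FPKM (SD, n = 3). The Jun genes together held 69.8 ± 1.54% of the sum with DMSO and 66.5 ± 4.72% with AI-10-49. The share of the Jun family thus moved less than the spread among treated libraries. It was 70.0, 61.1 and 68.4% in these, so the lower mean rests mostly on replicate 2. The Fos genes together held 27.9 ± 1.58% and 21.5 ± 3.24%, lower in every treated library than in any DMSO library, with replicate 2 the highest treated library at 25.2% and the lowest DMSO library at 26.1%. Within the Jun genes, the share of JUN went from 8.38 ± 0.43% to 36.7 ± 1.27%. The share of JUNB went from 51.7 ± 1.44% to 25.8 ± 3.72%, and that of JUND was 39.9 ± 1.30% and 37.5 ± 2.46%. JUN's share was higher, and JUNB's lower, in every treated library than in any DMSO library.

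Among the Fos genes, FOSL2 held 53.7 ± 1.56% of their summed FPKM with DMSO and 73.3 ± 5.01% with AI-10-49. The share of FOSL1 was 28.8 ± 2.40% with DMSO and 6.05 ± 1.39% with AI-10-49, with no overlap between groups. FOS held 12.5 ± 0.79% and 16.9 ± 3.16%, with no overlap between groups. Its share was 14.9, 20.6 and 15.4% in the treated libraries, so the higher mean rests in part on replicate 2. FOSB held 5.08 ± 1.02% and 3.71 ± 0.52%, and its groups overlapped. ATF3 made up 2.38 ± 0.07% of the sum of all 8 genes with DMSO and 12.0 ± 1.56% with AI-10-49. These shares are of mRNA per transcript length and not of protein.

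**Figure D4:**
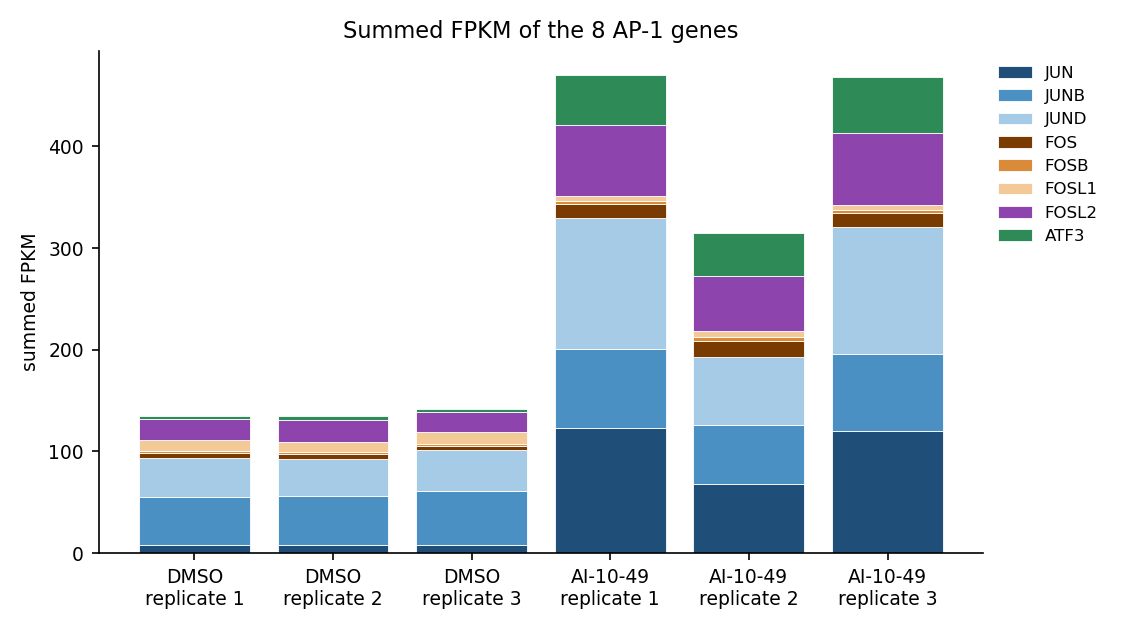
Summed FPKM of the 8 AP-1 genes (vertical axis, from 0) in each library, stacked by gene. The 3 DMSO libraries sum to 134 to 142 FPKM and are mostly JUNB and JUND, and the 3 AI-10-49 libraries sum to 315 to 470 FPKM with a large part of JUN.

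JUN was also set against each other member within each library. A scaling factor common to all genes of a library largely cancels in such a ratio, but the low readings of AI-10-49 replicate 2, which differ with the level, do not. On the scale of log2(FPKM + 1), the log2 ratio of JUN to JUNB was -2.39, -2.48 and -2.58 with DMSO and 0.67, 0.23 and 0.65 with AI-10-49. JUN thus lay below JUNB in every DMSO library and above it in every treated one. The mean difference in this ratio between groups was 3.002. It was 2.09 for JUND, 2.04 for FOS, 2.95 for FOSB, 4.43 for FOSL1 and 1.89 for FOSL2, and in each of these the groups did not overlap. Without AI-10-49 replicate 2 the difference was 3.15 for JUNB, 2.07 for JUND, 2.39 for FOS, 3.26 for FOSB, 4.80 for FOSL1 and 2.04 for FOSL2. Permuting the 6 libraries exactly (two-sided) gave p = 0.1 for each, the smallest p that 3 against 3 allows (adjusted p = 0.117 over 7 ratios). The ratio of JUN to ATF3 was 1.08 ± 0.05 with DMSO and 1.02 ± 0.33 with AI-10-49 (SD, n = 3), a difference of -0.06 (exact permutation p = 0.9). With replicate 2 of the treated group left out the difference was 0.13. The difference was smaller than the spread among treated libraries, which does not show that these genes respond alike.

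The rows whose profile over the 6 libraries was nearest to that of ATF3 (root-mean-square distance of log2 values centred on the DMSO mean) were GRASP (0.136), which encodes a trafficking scaffold, SLC7A11 (0.155), the cystine transporter gene, and JUN (0.199). Nearest to JUN were ATF3 (0.199), the nuclear receptor gene NR4A1 (0.246) and GRASP (0.252). GRASP rose from 1.25 ± 0.24 to 22.9 ± 1.39 FPKM, SLC7A11 from 0.923 ± 0.14 to 23.4 ± 0.91 FPKM and NR4A1 from 6.09 ± 0.20 to 67.0 ± 7.93 FPKM (SD, n = 3). With 2 groups in the design, this likeness mostly says that their rises were of like size.

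Other genes for basic leucine zipper proteins rose in 7 and fell in 3 of 10 measured (of 21 on the list), against 46.2% higher and 49.1% lower over all rows. Their median log2 fold change was 0.67, against -0.28 over all rows. Like the lists that follow, this one was chosen with earlier results of these data known. Its counts and median are therefore descriptions, and no list was tested as a set. MAFF, a small Maf protein with no activating region of its own, read 5.76, 5.89 and 6.89 FPKM with DMSO and 56.1, 44.1 and 56.5 FPKM with AI-10-49 (log2 fold change 2.89 ± 0.10 SE). JDP2, whose protein pairs with Jun and represses AP-1 sites, read 5.65, 5.81 and 6.94 FPKM with DMSO and 43.8, 27.0 and 43.0 FPKM with AI-10-49 (2.42 ± 0.14). DDIT3, which encodes the stress factor CHOP, read 14.1, 13.6 and 13.3 FPKM with DMSO and 125, 68.4 and 125 FPKM with AI-10-49 (2.81 ± 0.18). In all of these the treated libraries lay far above the DMSO libraries, with DDIT3 near the level of JUN and MAFF near that of ATF3. NFE2, of the blood cell factor NF-E2, fell by 0.93 ± 0.24 on the log2 scale (adjusted p = 0.00255), from 157 ± 4.50 to 83.6 ± 18.7 FPKM (SD, n = 3). MAFK stood on 2 rows and was not counted.

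Genes of the JNK, ERK and p38 cascade, kinases and a scaffold gene, moved in both directions, none by more than 1.37 on the log2 scale. Of 15 measured (of 43 on the list), 8 rose and 7 fell, shares near the 46.2% and 49.1% over all rows, with a median of 0.32 against -0.28. BRAF, an ERK pathway kinase, rose from 6.70 ± 0.51 to 15.8 ± 0.27 FPKM (± SD over 3 libraries), or by 1.13 ± 0.07 (SE) on the log2 scale, and MAP2K5, the kinase of ERK5, from 16.0 ± 0.82 to 33.6 ± 2.62 FPKM (1.02 ± 0.07). RPS6KA4, which encodes the CREB and histone kinase MSK2, fell from 47.1 ± 3.91 to 17.5 ± 1.04 FPKM (-1.37 ± 0.08). MAP3K5, which encodes the stress kinase ASK1 upstream of JNK and p38, fell from 9.12 ± 0.57 to 4.21 ± 0.30 FPKM (-0.96 ± 0.08). The JNK1 gene MAPK8, named after its values were seen, changed by 0.37.

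Among factors known to act on the promoters of Jun and Fos genes, 9 rose and 3 fell of 12 measured (of 18), beside 46.2% and 49.1% of all rows, with a median of 0.38 against -0.28. One of the 3 that fell, ELK4 (-0.24, named after its values were seen), had overlapping groups, and without DMSO replicate 1 or AI-10-49 replicate 1 its limma adjusted p was 0.0820 or 0.0993. CREM, which binds cyclic AMP response elements, rose most, from 6.60 ± 0.28 to 30.1 ± 1.07 FPKM (± SD over 3 libraries), or by 2.03 ± 0.06 (SE) on the log2 scale. A value per gene does not tell its activating forms from the short repressor ICER. The coactivator gene CREBBP rose from 17.0 ± 1.63 to 34.9 ± 3.16 FPKM (0.99 ± 0.09) and MEF2C from 23.0 ± 1.21 to 37.7 ± 3.31 FPKM (0.69 ± 0.08). SRF, which binds the serum response element of FOS, fell from 36.1 ± 2.01 to 20.4 ± 1.05 FPKM (-0.79 ± 0.07). In both SRF and FOS, which moved in opposite directions, the groups did not overlap.

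Genes that limit this pathway rose in 9 and fell in 5 of 14 measured (of 24), while 46.2% of all rows rose and 49.1% fell, and had a median of 0.47 against -0.28. DUSP1, an immediate early phosphatase of MAP kinases, read 2.28, 2.34 and 2.85 FPKM with DMSO and 15.6, 16.8 and 16.7 FPKM with AI-10-49 (log2 fold change 2.32 ± 0.08 SE). DUSP16, a phosphatase of JNK and p38, rose from 6.23 ± 0.12 to 20.1 ± 0.63 FPKM (1.55 ± 0.06). DUSP7, a phosphatase of ERK, fell from 26.1 ± 0.72 to 7.35 ± 0.14 FPKM (-1.70 ± 0.06). ZFP36L2, whose protein binds AU-rich elements and hastens the decay of short-lived mRNAs, fell from 120 ± 4.22 to 28.3 ± 2.97 FPKM (-2.06 ± 0.12).

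Of 23 measured genes known as AP-1 targets (of 43 on the list), 17 rose and 5 fell, set against 46.2% and 49.1% of all rows. Their median was 0.73 against -0.28, and this list too was chosen with earlier results of these data known. The remaining one, TIMP1, a gene for an inhibitor of matrix metalloproteinases, did not pass (log2 fold change -0.72, adjusted p = 0.0801). TIMP1 read 199, 188.0 and 211 FPKM with DMSO and 154, 73.0 and 155 FPKM with AI-10-49, so its groups did not overlap. Without AI-10-49 replicate 2 its log2 fold change was -0.37 with a limma adjusted p of 0.000602, and 6 genes of the list fell. NQO1 (named after its values were seen), one of the 17, had an adjusted p of 0.0802 by limma without DMSO replicate 1. HMOX1, the haem oxygenase gene, rose from 0.700 ± 0.15 to 12.6 ± 0.68 FPKM (± SD over 3 libraries), or by 3.01 ± 0.09 (SE) on the log2 scale, and CDKN1A, which encodes the cell cycle inhibitor p21, from 8.20 ± 1.05 to 46.2 ± 3.97 FPKM (2.36 ± 0.09). Both are also known targets of other factors, NRF2 and p53. IL8, a chemokine gene, read 17.3, 17.6 and 19.0 FPKM with DMSO and 87.0, 54.0 and 94.4 FPKM with AI-10-49 (2.03 ± 0.16). CCND1, the cyclin D1 gene that JUN is known to activate, went the other way, from 75.6 ± 1.93 to 17.5 ± 0.57 FPKM (-2.05 ± 0.08). The other 4 of the list that fell were IL1B (-1.73), BCL2L11 (-0.95), LIF (-0.93) and TXN (-0.90), named here after their values were seen.

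**Figure D5:**
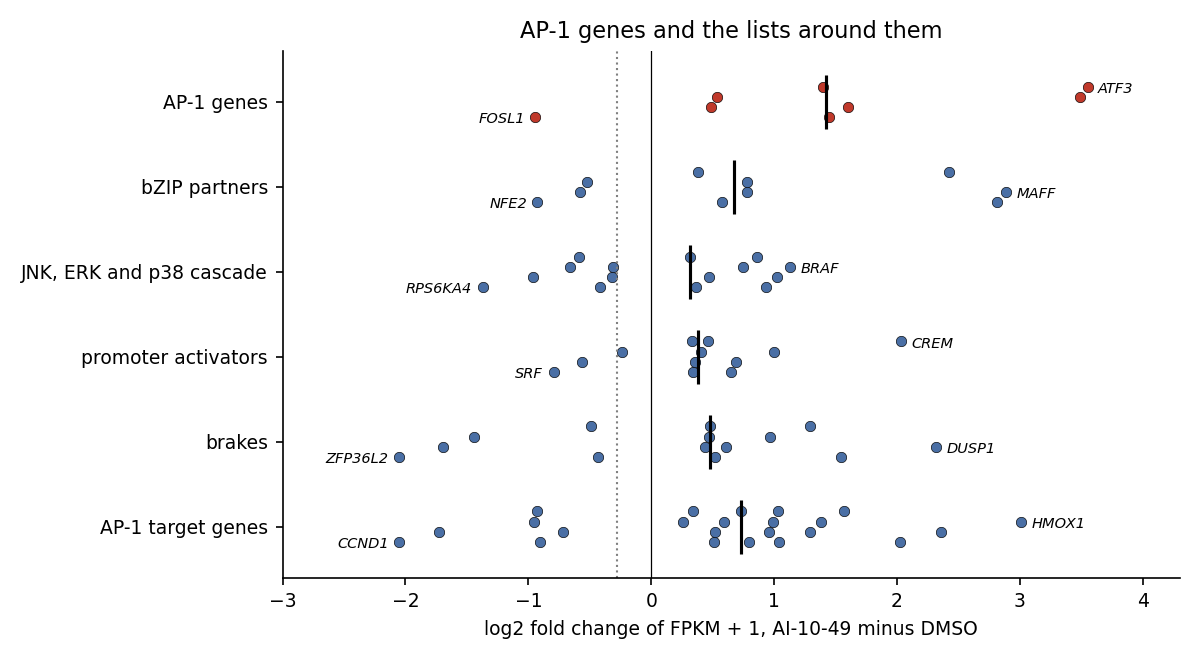
Log2 fold change of FPKM + 1, AI-10-49 minus DMSO (horizontal axis), for each measured gene of the AP-1 set (red) and of 5 lists around it (blue), with list medians as vertical bars, the lowest and highest gene of each named, and the median of all rows (-0.28) dotted. The AP-1 genes have a median of 1.42, and every list holds genes on both sides of zero.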

How the data were processed

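RNA of 6 ME-1 cultures was sequenced. Tools named in the submitters' processing notes are Bowtie2 2.1.0, Cufflinks 2.2.0 and Cuffdiff, with the build hg19. Per the deposited table, values are FPKM for 6339 rows. Several genes share a row in 198 of them, and 23 labels occur more than once. No source used here gives the rule by which rows were selected. Depth is unknown: in 223 low rows at most 33.6% of ratios between 2 DMSO libraries lay within 0.5% of ratios of whole numbers up to 10, so reads were not recovered.

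FPKM were tested as log2(FPKM + 1) with limma 3.58.1 in R 4.3.3 (two-sided, with a mean-variance trend) as AI-10-49 minus DMSO. Rows whose mean was under 1 FPKM in both groups were left out (109). P-values were adjusted over all rows by the Benjamini-Hochberg method with a threshold of 0.05. Such folds understate changes of low genes. Replicate numbers are those of the labels, and p-values measure the spread between these cultures. Ratios and plots were made with Python 3.11.15, SciPy 1.17.1 and Matplotlib 3.10.9.

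The members and lists were chosen with earlier results of these data known. Named genes are all members, the 4 largest changes past the threshold in each of 5 lists, and the 3 rows nearest in profile to the 2 members of largest change. List members were matched by symbol to rows naming 1 gene. Other settings tried were a pseudocount of 0.1 or 0.5, testing all rows or those of at least 5 FPKM, quantile and median scaling, a replicate block, no trend, and each library left out in turn.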

Additional observations from a re-analysis of the deposited data

How the results depend on the processing

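A minimum log2 fold change of 1 was added after the data were seen and takes out small changes by construction. Applied to the main fit, it left 836 rows, 5 members and 0 members that fell. FOSL1 (-0.94) lay just short of it there and, as its range below shows, passed it in some settings. Under the other alternatives no member lost its call or changed direction in 119 values, FOSB having none with the filter at 5 FPKM. The log2 fold change ranged from 3.34 to 3.93 for JUN, 0.42 to 0.82 for JUNB, 1.23 to 1.88 for JUND and 3.46 to 3.86 for ATF3. It ranged from 1.37 to 1.61 for FOS, 0.42 to 0.73 for FOSB, -1.06 to -0.88 for FOSL1 and 1.54 to 1.83 for FOSL2, and the largest adjusted p was 0.0253, for JUNB. Quantile normalization moved the median of all rows from -0.28 to -0.07. The difference in the ratio of JUN to ATF3 lay between -0.20 and 0.13 when single libraries were left out, positive without AI-10-49 replicate 2, and was -0.24 with a pseudocount of 0.1. None of 140 list counts moved by over 1.5 times. The replicate block gave 6015 rows and 8 members. Deviations of same-numbered libraries correlated at -0.15, 0.147 and 0.247. Differently numbered libraries were not set beside them, so these values do not decide whether the numbers mark pairs. The main fit did not treat them as pairs. With no depth known, how exact a low value such as that of FOSB is can be read from 3 libraries a group alone.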
